A study of Mus musculus with 24 samples.

Results

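The globin, haem synthesis and erythropoietin genes described here are the adult alpha-globin genes Hba-a1 and Hba-a2, the adult beta-globin genes Hbb-bs and Hbb-bt, the erythroid haem synthesis gene Alas2, the alpha-globin chaperone gene Ahsp, the hormone gene Epo and its receptor gene Epor. They were chosen by their levels in these same libraries, mainly the differences in globin reads between the groups of each experiment, so their values are given as a description with standard errors and without a test. Of the 8 named genes, 7 were matched among the 35413 genes of the annotation, and 6 of those 7 passed the filter on low counts; Epo did not pass it, and Ahsp was not analysed here.

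The study sequenced RNA from whole mouse kidney in 2 experiments of 16 and 8 libraries. In the first, a chow group of 4 mice, whose genotype the labels do not state, was set beside 6 mice labelled wild type and 6 labelled knockout, both kept for 14 days on an adenine diet, which injures the kidney tubule. Mice with floxed ENPP1 (ENPP1 fl/fl) had been crossed to the CAG-ERCre transgene, a Cre recombinase driven by the broadly active CAG promoter and switched on by tamoxifen; the knockout group is CAG-ERCre+ and the wild type is CAG-ERCre-, so the Cre and the lost gene cannot be told apart. Whether the wild-type or chow mice carried the floxed allele or received tamoxifen is not given in the sources used here. In the second experiment, all 8 mice were on the adenine diet for 14 days, and 4 received control IgG and 4 the hENPP1 monoclonal antibody, by repeated intraperitoneal injection at 50 mg/kg; strain, age, sex and whether these mice carried human ENPP1 are not given. The labels number the replicates without saying how the mice were housed or their kidneys handled, nor whether the kidneys were flushed of blood, so p-values measure only the spread between these samples.

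The targeted gene was checked first. Enpp1 stood at 22.7 ± 1.19 CPM (read counts scaled to library size; SD, n = 6) in the libraries labelled knockout and at 22.0 ± 1.52 CPM (n = 6) in those labelled wild type, a log2 difference of 0.05 ± 0.051 (SE; edgeR adjusted p = 0.466). Chow kidneys held 54.2 ± 2.88 CPM (n = 4). Gene-level reads do not separate a transcript with a deleted exon from an intact one, so the groups are called here by their labels. Reads assigned to genes ranged from 21049722 to 28209908 per library in the first experiment and from 43880608 to 50557594 in the second, of which mitochondrial genes took 16.9% to 26.7% and 20.6% to 30.1%. CPM values were scaled by TMM, a normalisation that sets the bulk of genes equal between libraries.

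Haemoglobin is built from alpha- and beta-globin chains, each holding a haem, and its messenger RNA is made in erythroid precursors and carried on for a while by reticulocytes, the youngest red cells of the blood. In adult mice these cells mature mainly in bone marrow and spleen, so globin messages in a kidney are usually read as blood held in its vessels, although low globin expression has been described in some non-erythroid cells. The kidney is itself the main adult source of erythropoietin, made by interstitial fibroblast-like cells near the tubules when oxygen is low, and the hormone acts through its receptor to keep erythroid precursors alive. Alas2 makes the first product of the haem pathway in erythroid cells, and Ahsp holds free alpha chains until they pair with beta chains.

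The sequences show why the copies of a globin were also pooled. The coding sequences of Hba-a1 and Hba-a2 (gene identifiers ENSMUSG00000069919 and ENSMUSG00000069917, chromosome 11) are both 429 bases long and differ at 1 base, C381T, with positions counted from 1 at the first base of the start codon and the base of Hba-a1 given first. Those of Hbb-bs and Hbb-bt (ENSMUSG00000052305 and ENSMUSG00000073940, chromosome 7) are both 444 bases long and differ at 1 base, C417T, with the base of Hbb-bs given first. Reads from the coding part of a pair can therefore be told apart only across that base or by the ends of the transcript, and the split within a pair is uncertain. An alpha and a beta coding sequence (Hba-a1 and Hbb-bs) share no run longer than 14 bases, so the split between the chains does not carry that doubt. The stretches around the differing base, from the GENCODE M21 transcripts, are printed 5′ to 3′ with that base in capitals; they cover coding positions 361 to 401 of the alpha pair and 397 to 437 of the beta pair.
Hba-a1: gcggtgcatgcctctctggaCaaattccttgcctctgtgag
Hba-a2: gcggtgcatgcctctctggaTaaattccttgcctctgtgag
Hbb-bs: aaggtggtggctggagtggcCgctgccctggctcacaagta
Hbb-bt: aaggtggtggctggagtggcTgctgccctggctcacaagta

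The promoters are shown because the globins and Alas2 differed between the groups by like amounts and Epor by less. Each line is the 250 bases before the start of the gene's transcript in RefSeq (GRCm38.p6), where all 7 matched genes had an entry, printed 5′ to 3′ on the gene's strand. Capitals mark 4 motifs on either strand: GATAA, the core of sites bound by GATA factors, CACCC, the core of sites bound by Krüppel-like factors, CCAAT, and TATAA, the core of the TATA box. The windows are chr11:32283422-32283671 on the plus strand for Hba-a1, chr7:103827929-103828178 on the minus strand for Hbb-bs, chrX:150547167-150547416 on the plus strand for Alas2 and chr9:21963577-21963826 on the minus strand for Epor. The window of Hba-a2 shares a run of 247 bases with that of Hba-a1 and is not printed; the windows of Hbb-bs and Hbb-bt share no run longer than 14 bases.
Hba-a1: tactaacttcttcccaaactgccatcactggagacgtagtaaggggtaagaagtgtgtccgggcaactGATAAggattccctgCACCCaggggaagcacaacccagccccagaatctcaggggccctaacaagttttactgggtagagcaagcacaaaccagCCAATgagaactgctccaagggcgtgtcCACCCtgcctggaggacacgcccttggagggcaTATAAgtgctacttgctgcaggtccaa
Hbb-bs: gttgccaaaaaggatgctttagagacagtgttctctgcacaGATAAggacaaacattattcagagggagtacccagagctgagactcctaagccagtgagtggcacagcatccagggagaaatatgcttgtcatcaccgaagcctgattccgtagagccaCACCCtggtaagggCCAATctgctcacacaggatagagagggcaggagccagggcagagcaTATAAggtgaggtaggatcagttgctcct
Alas2: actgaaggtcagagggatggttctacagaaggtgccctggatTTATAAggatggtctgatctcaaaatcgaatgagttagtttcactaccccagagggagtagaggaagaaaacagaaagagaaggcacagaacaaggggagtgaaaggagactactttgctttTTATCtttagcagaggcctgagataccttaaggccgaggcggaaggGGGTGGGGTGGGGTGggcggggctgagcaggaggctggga
Epor: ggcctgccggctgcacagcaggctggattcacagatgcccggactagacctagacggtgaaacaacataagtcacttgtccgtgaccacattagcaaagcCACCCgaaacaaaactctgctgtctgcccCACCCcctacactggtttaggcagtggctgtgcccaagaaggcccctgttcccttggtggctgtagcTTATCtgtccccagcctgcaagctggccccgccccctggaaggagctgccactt

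All 4 globin windows held all 4 motifs, a combination found in 0.968% of the 32851 promoter windows of the same length. The motifs were picked by hand and not found by a search, and the windows of Hba-a1 and Hba-a2 are nearly the same sequence. Nothing is therefore read from that share. In the 2 globin windows printed, GATAA lay farthest out, with its first base at -182 in Hba-a1 and -209 in Hbb-bs counted back from the start, and TATAA closest at -27 and -29, with CCAAT between at -88 and -76. Alas2 held GATAA (as TTATC, at -86), 3 adjoining GGGTG matches to CACCC from -40 to -26, and TATAA matches on both strands that overlap at -208 to -203, but no CCAAT. Epor, like Epo, held GATAA and CACCC and neither CCAAT nor TATAA in this window. Over all windows, 22.58% held GATAA, 52.01% CACCC, 33.85% CCAAT and 22.78% TATAA. A match is a description of the letters and not evidence of a bound site.

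Globin messages were far lower in adenine-fed kidneys labelled wild type than in chow kidneys, and lay between these groups in adenine-fed kidneys labelled knockout. Reads pooled over the 4 globin genes gave 1284, 1226, 1063 and 1153 CPM in the 4 chow kidneys. In the 6 wild-type kidneys on adenine the lowest was 12.4, the median 23.8 and the highest 35.4 CPM, and in the 6 labelled knockout 203, 361 and 487 CPM. None of the 3 groups overlapped another: the lowest knockout-labelled kidney held more globin than the highest wild-type kidney, and the highest held less than the lowest chow kidney. The wild-type mean was 22.7 ± 9.34 CPM (SD, n = 6), 1.92% of the chow mean of 1182 ± 95.2 CPM (n = 4), and the fitted log2 change was -5.70 ± 0.28 (SE). The knockout-labelled mean was 354 ± 97.2 CPM (n = 6), 3.96 ± 0.25 above wild type on the log2 scale, a 15.6-fold difference, and 1.74 ± 0.24 below chow on that scale. The comparisons with chow share the same 4 chow kidneys. In a whole kidney, fewer cells carrying a message and less message per cell cannot be told apart.

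The sizes stand near the end of the range over all genes. Of 16959 genes tested, 16 were lower by more than the pooled globins in wild type against chow, where the median over all genes was a log2 change of 0.07, and 13 were higher by more in the knockout-labelled against the wild-type kidneys, where the median was -0.02. In the knockout-labelled kidneys against chow, 320 genes were lower by more. Single globin genes are among those counted. They are Hba-a2, Hbb-bs and Hbb-bt in wild type against chow, and Hba-a2 and Hbb-bt in knockout-labelled against wild type. In knockout-labelled against chow they are Hbb-bs and Hbb-bt. Of the 7 matched members, 6 were called lower and 0 higher in wild type against chow, where 40.9% of all genes tested were called lower and 44.0% higher. All 7 did not overlap between those groups and were lower, as were 37.4% of all genes tested, with 37.8% higher. In knockout-labelled against wild type, 5 members were called higher and 0 lower, where 25.1% of all genes were called higher and 21.3% lower. The same 5, the globins and Alas2, did not overlap, where 14.4% of all genes were higher without overlap and 10.2% lower. In knockout-labelled against chow 6 were called lower and 0 higher, where 39.9% of all genes were called lower and 40.2% higher, and 5 were lower without overlap, as were 36.0% of all genes, with 33.6% higher. The genes were picked for these differences, so nothing is read from these counts.

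The size of the difference from chow depends on how libraries are scaled. As a share of all reads assigned to genes, the pooled globins in wild type were 2.96% of the chow value (log2 -5.08), and in the deposited TPM (a transcript abundance that allows for length) 3.46% (log2 -4.85). The knockout-labelled kidneys held 44.1% and 53.0% of the chow value on those scales, against 30.0% with TMM. The median gene itself shifted upwards by 0.72 and 1.00 log2 units in wild type against chow on those scales, and relative to it the globins were lower by similar amounts, -5.80 and -5.85. The difference between the adenine-fed groups moved little, from 3.96 to 3.90 and 3.94. On each of these scales the 3 groups did not overlap.

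**Figure D1:**
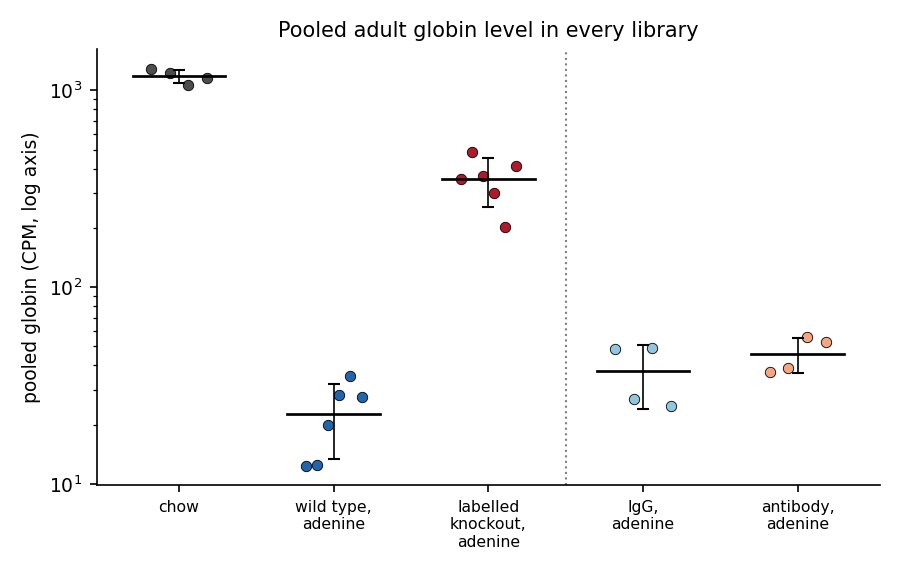
Reads pooled over Hba-a1, Hba-a2, Hbb-bs and Hbb-bt in each of the 24 kidneys, in CPM on a log axis; points are kidneys, the black line is the group mean and the bar its SD, and the dotted line separates the experiments. Chow kidneys sit between 1063 and 1284 CPM, wild-type kidneys on adenine between 12.4 and 35.4, knockout-labelled kidneys between 203 and 487, and the IgG and antibody groups overlap.

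The 4 globin genes differed between the groups in the same direction and by similar amounts. Hba-a2, an alpha gene, held 481, 487, 443 and 444 CPM in chow, 3.90 to 12.6 CPM with a median of 8.74 in wild type on adenine and 85.4 to 205 CPM with a median of 149 in the knockout-labelled kidneys. Its log2 change was -5.84 ± 0.27 in wild type against chow and 4.19 ± 0.25 in knockout-labelled against wild type. The groups did not overlap for this gene. Hbb-bs, a beta gene, held 535, 488, 390 and 463 CPM in chow, 5.29 to 13.1 CPM with a median of 8.84 in wild type and 69.0 to 182 CPM with a median of 131 in the knockout-labelled kidneys, with changes of -5.75 ± 0.26 and 3.87 ± 0.24. Every knockout-labelled kidney was again above every wild-type kidney and below every chow kidney. For Hba-a1 the changes were -5.27 ± 0.25 and 3.63 ± 0.24, and for Hbb-bt, the less abundant beta gene, -5.74 ± 0.23 and 4.00 ± 0.23. Against chow, the changes in the knockout-labelled kidneys were -1.64 ± 0.21 for Hba-a1, -1.65 ± 0.23 for Hba-a2, -1.87 ± 0.22 for Hbb-bs and -1.75 ± 0.17 for Hbb-bt. In wild type against chow and in knockout-labelled against wild type, the change of Hba-a1 was the smallest of the 4 and lay more than 1 SE from that of Hba-a2. Differences between the 4 genes were not tested.

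Per length, in the deposited TPM, the order of the members in chow kidneys was Hba-a2 at 845 ± 51.3 TPM, Hbb-bs at 707 ± 105, Hba-a1 at 223 ± 11.5, Hbb-bt at 99.1 ± 15.3, Alas2 at 6.03 ± 0.499, Epor at 2.74 ± 0.534 and Epo at 0.112 ± 0.0443 (SD, n = 4). The ranges of Hba-a2 and Hbb-bs overlapped, and the other neighbours in this order did not. In wild-type kidneys on adenine the globins kept that order, from 27.0 ± 9.64 TPM for Hba-a2 and 24.0 ± 6.82 for Hbb-bs to 10.5 ± 4.83 for Hba-a1 and 3.40 ± 1.04 for Hbb-bt (n = 6). Epor, at 2.57 ± 0.506 TPM there, lay above Alas2 at 0.130 ± 0.0762, the reverse of their order in chow. In the knockout-labelled kidneys Hba-a2 stood at 477 ± 127 TPM, Hbb-bs at 338 ± 96.4, Alas2 at 3.30 ± 1.02 and Epor at 3.77 ± 1.84 (n = 6), and the ranges of Alas2 and Epor overlapped.

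In the antibody experiment the groups overlapped for every matched member. The pooled globins gave 48.7, 26.9, 48.8 and 24.9 CPM in the 4 IgG kidneys and 36.9, 38.7, 55.6 and 52.5 CPM in the 4 antibody kidneys, a log2 difference of 0.30 ± 0.23. The groups overlapped, and the IgG kidneys differed among themselves, with replicates 1 and 3 above replicates 2 and 4. None of the 6 members that passed the filter was called in either direction, where 27.2% of the 16404 genes tested were called higher and 28.0% lower. None was without overlap either, where 25.4% of all genes were higher without overlap and 25.2% lower. The 4 globin genes gave differences from 0.22 ± 0.22 for Hbb-bs to 0.42 ± 0.27 for Hba-a2. The IgG and antibody kidneys held 24.9 to 55.6 CPM of globin and the wild-type kidneys on adenine 12.4 to 35.4. The experiments differed in read depth and were scaled separately here, so those levels are set side by side without a comparison.

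**Figure D2:**
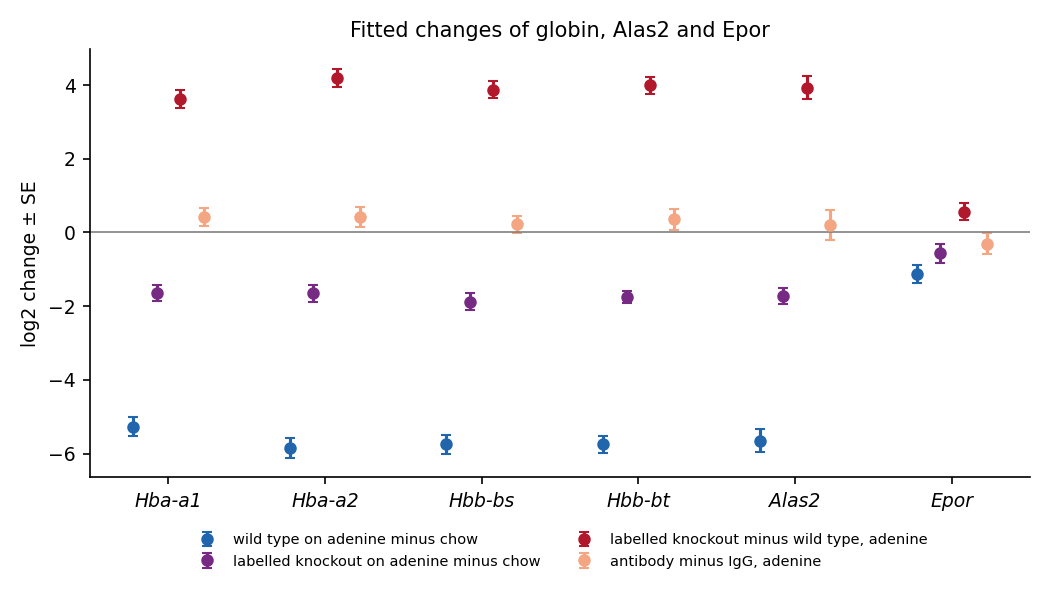
Log2 change of each globin gene, Alas2 and Epor in the 4 comparisons, with bars of 1 SE; the line at 0 marks no change. The globins and Alas2 lie between -5.84 and -5.27 in wild type against chow and between 3.63 and 4.19 in knockout-labelled against wild type, while Epor lies nearer to 0.

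The balance between the chains differed between the experiments more than between their groups. Alpha reads per beta read were 1.17 ± 0.119 in chow (n = 4), 1.19 ± 0.163 in wild type on adenine (n = 6) and 1.36 ± 0.0702 in the knockout-labelled kidneys (n = 6), with overlapping ranges. In the antibody experiment the ratio was 0.489 ± 0.0193 with IgG and 0.553 ± 0.0569 with the antibody (n = 4 each). Beta reads thus outnumbered alpha reads in all 8 of those kidneys, and the deposited TPM gave ratios of 0.549 and 0.624 against 1.33 to 1.57 in the first experiment; no group is shared between the experiments, so their samples and their library preparation cannot be told apart. Within the alpha pair, Hba-a1 took 27.0% ± 0.677 of the reads in chow, 34.9% ± 3.17 in wild type on adenine and 27.4% ± 1.28 in the knockout-labelled kidneys. The wild-type kidneys, from 31.0% to 39.2%, did not overlap the other groups, which ended at 27.5% and 29.1%. That split rests on 1966 alpha reads over the 6 wild-type libraries and on the assignment of near-identical copies. Hbb-bt took 14.2% ± 0.160 of beta reads in chow, 14.5% ± 2.81 in wild type and 15.3% ± 0.944 in the knockout-labelled kidneys, with overlapping ranges.

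Alas2 (ENSMUSG00000025270, chromosome X), the erythroid form of aminolevulinate synthase, followed the globins. It gave 11.7, 10.5, 8.66 and 9.88 CPM in chow, 0 to 0.331 CPM with a median of 0.217 in wild type on adenine and 1.72 to 4.35 CPM with a median of 3.37 in the knockout-labelled kidneys. The groups did not overlap. The log2 change was -5.65 ± 0.31 in wild type against chow, 3.93 ± 0.32 in knockout-labelled against wild type and -1.72 ± 0.22 in knockout-labelled against chow. With a transcript-length offset the first pair became -6.32 and 4.64. The wild-type value rests on 31 reads over 6 libraries, 1 of them without a read, against 815 in chow and 479 in the knockout-labelled kidneys. Summed over each group, there were 8.63 Alas2 reads per 1000 globin reads in chow, 8.71 in wild type and 8.74 in the knockout-labelled kidneys. The ratio therefore stayed at one level while pooled globin differed 52.1-fold and Alas2 50.4-fold between chow and wild type, although single wild-type libraries ranged from 0 to 14.5 per 1000. With IgG, Alas2 gave 0.963, 0.175, 0.650 and 0.458 CPM, and with the antibody 0.692, 0.510, 0.680 and 0.697 CPM, a difference of 0.21 ± 0.41 with overlapping groups; the summed ratio was 14.7 and 14.0 per 1000.

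**Figure D3:**
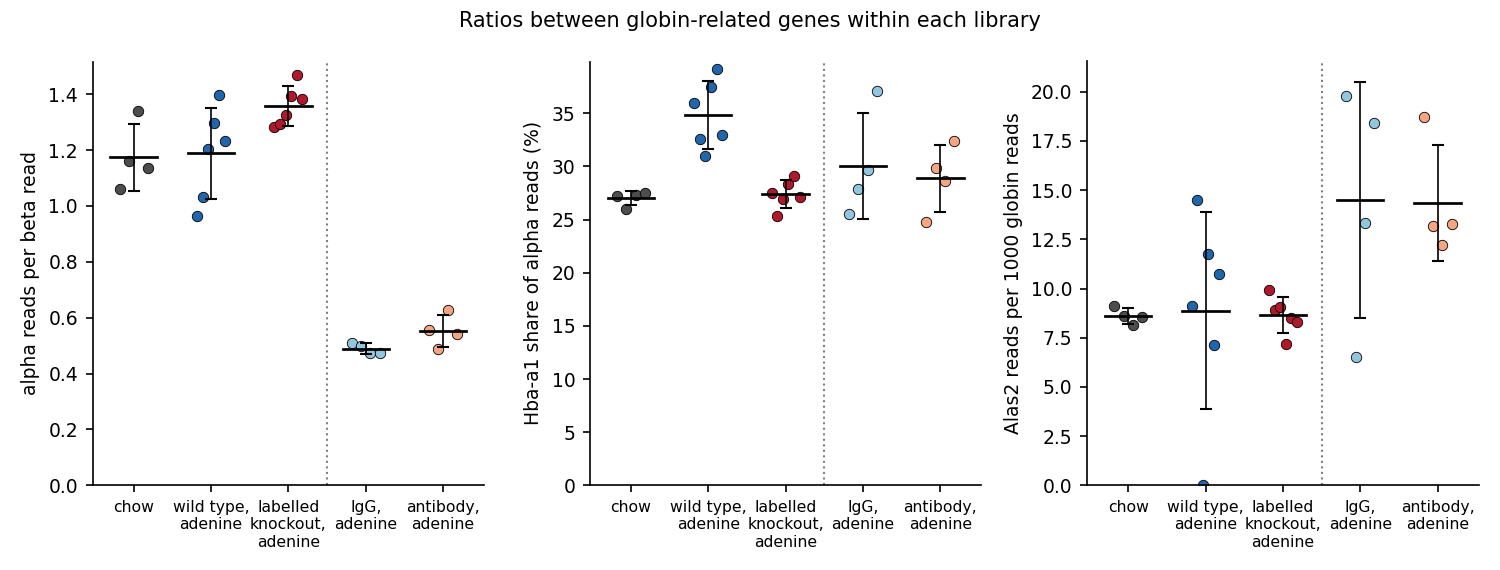
Alpha reads per beta read, the percentage of alpha reads assigned to Hba-a1, and Alas2 reads per 1000 globin reads in each kidney; points are kidneys, black lines group means and bars SD. Wild-type kidneys on adenine lie above the other groups of their experiment in the Hba-a1 share, from 31.0% to 39.2%, and alpha per beta lies under 1 in all IgG and antibody kidneys.

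The hormone and its receptor had the same order of group means on the TMM scale, chow above knockout-labelled above wild type, with far fewer reads for Epo and a smaller difference for Epor. Epo (ENSMUSG00000029711, chromosome 5) gave 8 reads over the 4 chow libraries, at least 1 in each, and 0 over the 6 wild-type libraries on adenine. A count of 0 allows up to 3 reads over the group. Relative to depth, the 8 chow reads as observed stood at 5.24-fold that limit of wild type on adenine. The knockout-labelled kidneys gave 7 reads, in 3 of 6 libraries, the IgG kidneys 0 in 4 libraries, and the antibody kidneys 2, in 1 of 4 libraries. Set against the same wild-type limit, the knockout-labelled reads as observed stood at 2.38-fold, but the libraries of these groups overlapped at 0. Of the 7 reads, 4 came from replicate 3, and the other 3 reads are at the limit and give no fold. Both ratios allow for counting error in the count of 0 only. They leave out that of the 8 and 7 reads set against it, so they are not lower bounds. Epor (ENSMUSG00000006235, chromosome 9) gave 7.72, 5.45, 5.44 and 6.84 CPM in chow, 2.05 to 3.67 CPM with a median of 2.90 in wild type and 2.62 to 7.53 CPM with a median of 3.70 in the knockout-labelled kidneys. Wild type did not overlap chow, at a log2 change of -1.13 ± 0.25, while the knockout-labelled kidneys overlapped both, at 0.56 ± 0.23 above wild type and -0.57 ± 0.25 against chow. These Epor values depend on the scaling: as a share of reads wild type was -0.49 and in TPM -0.09 against chow, with overlapping groups, and the knockout-labelled kidneys turned to 0.01 and 0.46 above chow. With IgG Epor gave 0.428, 0.737, 0.560 and 0.573 CPM and with the antibody 0.494, 0.603, 0.281 and 0.491 CPM, which overlapped (-0.30 ± 0.29).

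All cells need the other haem enzymes for cytochromes and other haem proteins. These enzymes moved far less than Alas2 in wild type against chow and in knockout-labelled against wild type. Lists of related genes were counted over all genes tested (edgeR quasi-likelihood test, adjusted p at the 0.05 threshold), and against chow 62 of the 159 tested pathway and marker genes rose and 79 fell in wild type, where 44.0% and 40.9% of all genes did. Of the 15 haem synthesis genes tested, 4 rose and 11 fell, with a median log2 change of -0.75 against 0.07 over all genes. Urod, which removes carboxyl groups from uroporphyrinogen, fell from 106 to 38.1 CPM (-1.47 ± 0.055, adjusted p = 1.48e-14), and Alas1, the form of the first enzyme used outside red cells, fell from 147 to 68.8 CPM (-1.09 ± 0.089, adjusted p = 1.02e-09). Alad fell by 1.12 on the log2 scale, Uros by 0.80, Cpox by 0.67 and Fech, which inserts iron to finish haem, by 0.39 (by 1.10 with a transcript-length offset). Ppox, the enzyme before Fech, rose from 45.8 to 89.8 CPM (0.97, adjusted p = 4.39e-12), and Slc25a37, a mitochondrial iron importer of erythroid cells, rose by 1.14.

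In knockout-labelled against wild-type kidneys 8 of the 15 haem synthesis genes rose and 2 fell, with a median of 0.16, and 64 of all 159 listed genes rose and 19 fell, where 25.1% and 21.3% of all genes did. With upper-quartile scaling the share of rises among all calls in that comparison goes from 54.1% to 40.7%. Alas1 rose to 132 CPM (0.94 ± 0.082, adjusted p = 8.74e-08), and Alad and Urod each rose by 0.45. Ppox, Cpox and Fech gave -0.04, 0.16 and 0.12 and did not pass, although Fech (adjusted p = 0.051) passed under some alternatives. Uros also rose, by 0.14, but upper-quartile scaling ended that call (adjusted p = 0.0997). Against chow, 10 of the 15 genes fell in the knockout-labelled kidneys and 4 rose, and Alas1 gave -0.15 ± 0.090 and did not pass.

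In the antibody experiment most of these genes passed the test, and no globin gene did. Of the 15 haem synthesis genes 12 rose and 1 fell with the antibody, with a median of 0.42 against -0.04 over all genes, where 27.2% of genes rose and 28.0% fell. Over all lists 56 of 150 tested genes rose and 36 fell. Upper-quartile scaling moves the share of rises among all calls there from 49.3% to 31.1%. Alas1 rose from 36.4 to 78.8 CPM (1.11 ± 0.12, adjusted p = 6.68e-05), Cpox from 58.0 to 104 CPM (0.85, adjusted p = 0.000175) and Fech by 0.78 (adjusted p = 8.1e-05). Clpx, a mitochondrial chaperone that handles Alas proteins, rose by 1.03. Ppox alone fell, by 0.31, and turned to 0.16 with a transcript-length offset. Alad gave 0.18, a call lost in 8 alternatives (adjusted p from 0.0586 to 0.804).

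**Figure D4:**
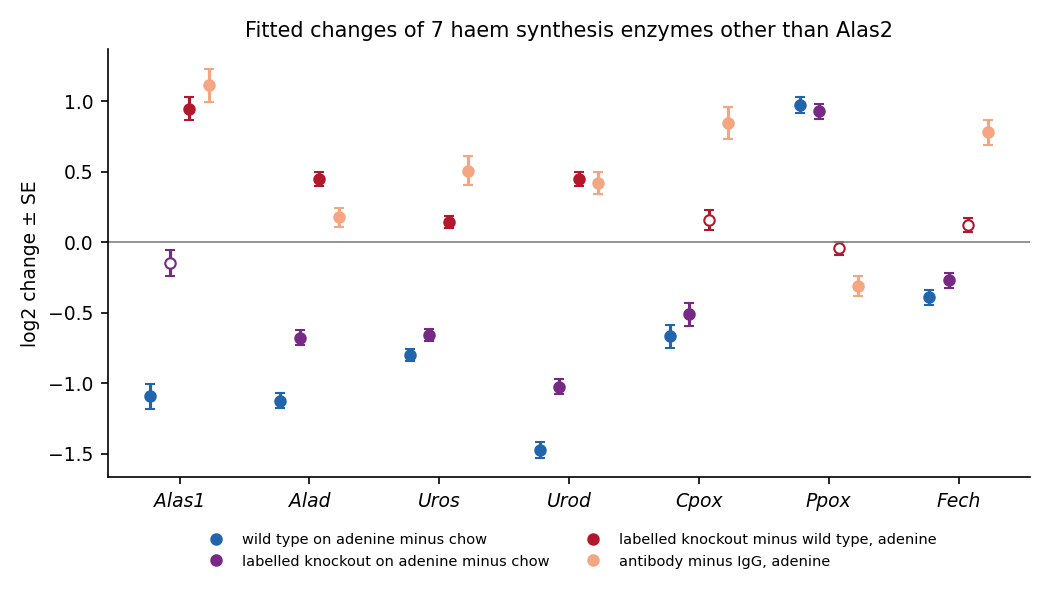
Log2 change of 7 haem synthesis enzymes other than Alas2 in the 4 comparisons, with bars of 1 SE; filled circles passed the test and open circles did not. Alas1 stands at -1.09 in wild type against chow, at 0.94 in knockout-labelled against wild type and at 1.11 with the antibody, and Ppox moves opposite to the others against chow, at 0.97.

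Genes of haem breakdown and transport were mixed. Of 12 tested, 6 rose and 5 fell in wild type against chow, 6 rose and 1 fell in knockout-labelled against wild type (6 and 3 with upper-quartile scaling), and 5 rose and 2 fell with the antibody. Flvcr2, a membrane transporter first linked to haem, fell from 46.2 to 5.91 CPM in wild type (-2.96 ± 0.11, adjusted p = 1.4e-14), and rose by 0.80 in the knockout-labelled kidneys and by 0.94 with the antibody. Blvra and Hmox2, enzymes of haem degradation, fell by 1.73 and 1.57 against chow and rose by 0.48 and 0.50 in the knockout-labelled kidneys. Hmox1, the inducible haem oxygenase, gave -0.12 in wild type against chow (adjusted p = 0.145) and -0.14 between the adenine groups (adjusted p = 0.0926), and neither passed. Hp, the plasma carrier of free haemoglobin, rose by 1.97 against chow (adjusted p = 9.22e-09).

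Several erythroid markers other than the members gave few reads; those given by their reads here were chosen after their values were seen. Gata1, the erythroid master factor, gave 4 reads in chow, 1 in wild type and 5 in the knockout-labelled kidneys, Rhd gave none in these 3 groups, and Hemgn gave 5, 25 and 24. These were too low to be tested, and the order of Hemgn is not that of the globins. Of 24 red cell genes listed 15 were tested, and 7 rose and 6 fell in wild type against chow and 5 rose and 1 fell in knockout-labelled against wild type; without the filter 23 were tested, with 7 rises and 10 falls, and 8 rises and 1 fall. Gypc, a glycophorin of the red cell membrane, fell from 2.55 ± 0.401 to 1.18 ± 0.102 CPM (-1.11, adjusted p = 3.82e-06) and rose to 2.33 ± 0.441 CPM in the knockout-labelled kidneys (0.97, adjusted p = 3.01e-05). Bpgm, which makes the phosphate ester that lowers haemoglobin's hold on oxygen, fell by 1.40 and rose by 0.49 in the same comparisons. With the antibody Bpgm was called higher and Gypc lower, where the globins overlapped. The risers include Kel, a blood group protein, with 2 reads in chow, 336 in wild type and 192 in the knockout-labelled kidneys; it rose against chow (adjusted p = 1.77e-11) and fell in knockout-labelled against wild type (-0.80, adjusted p = 0.000653), opposite to the globins. Epb42, a red cell membrane protein, rose by 1.66 against chow (adjusted p = 9.62e-09). Slc4a1, the anion exchanger of red cells and of kidney intercalated cells, fell by 2.96 and rose by 1.11 in the globins' direction, and rose by 1.76 with the antibody (adjusted p = 0.000406), where the globins overlapped. Of 10 erythroid transcription factor genes 8 were tested, and 5 rose and 2 fell in wild type against chow. The rises include Zfpm1, Ldb1, Lyl1 and Nfe2, and the falls were Lmo2 and Klf1. Klf1 ranged from -1.25 to -0.78 with single libraries left out, and some alternatives, such as DESeq2 (adjusted p = 0.078), did not call it. In knockout-labelled against wild type 1 rose and 1 fell. With the antibody 0 rose and 4 fell, of which Lyl1 and Nfe2 were not called under some alternatives. This list summed to 49.7 to 65.9 CPM with IgG and 39.0 to 42.5 with the antibody, without overlap. The summed level of the red cell list was 452 to 474 CPM in chow and 279 to 356 in wild type on adenine. It was 327 to 385 CPM in the knockout-labelled kidneys. With IgG it was 191 to 202 CPM and with the antibody 290 to 313, without overlap, where pooled globin overlapped. Of 13 red cell genes tested there, 4 rose and 3 fell. The part of the red cell list in the globin levels was not tested.

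Of the other globin genes, 3 of 9 were tested. The embryonic genes Hba-x and Hbb-y gave 1 read each over all 16 libraries of the first experiment, and Hbb-bh1 and Hbb-bh2 gave 0. Mb, myoglobin of muscle, fell from 6.16 ± 5.83 CPM in chow to 0.315 ± 0.143 in wild type (-4.26 ± 0.53, adjusted p = 3.92e-07; -3.39 without chow replicate 3) and was not higher in the knockout-labelled kidneys, at 0.184 ± 0.0507 CPM (adjusted p = 0.432). Cygb, cytoglobin of fibroblasts, rose by 0.95 against chow and fell by 1.36 with the antibody. Neither gene shared the globin pattern.

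The oxygen-sensing genes upstream of Epo moved in both directions. Of 13 tested, 5 rose and 7 fell in wild type against chow, 5 rose and 2 fell in knockout-labelled against wild type, and 7 rose and 1 fell with the antibody. With upper-quartile scaling the last counts were 5 and 4, and 4 and 2, in that order. Epas1, which encodes HIF-2 alpha, the factor that drives Epo, fell from 142 ± 4.79 to 61.0 ± 5.96 CPM (-1.22 ± 0.085, adjusted p = 8.22e-11) and rose to 88.7 ± 11.1 CPM (0.54 ± 0.077, adjusted p = 1.88e-05). Hif1a changed by -0.58 and 0.30 in these comparisons, and by 0.49 with the antibody. The prolyl hydroxylase genes Egln1 and Egln2, whose products mark HIF proteins for breakdown, fell by 1.49 and 1.16 and rose by 0.43 and 0.42, whereas Egln3 gave 0.15 and 0.01 and did not pass. Hif3a fell from 1.81 CPM in wild type to 1.02 in the knockout-labelled kidneys, a call lost with a transcript-length offset (adjusted p = 0.303), and its call against chow was lost in 7 alternatives (adjusted p from 0.0516 to 0.211). Hnf4a, which also binds the Epo enhancer and marks proximal tubule, fell from 606 ± 17.9 to 161 ± 13.5 CPM against chow and rose by 1.19 with the antibody.

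Targets of hypoxia signalling did not move as a block. Of 16 tested, 4 rose and 10 fell in wild type against chow, 7 rose and 1 fell in knockout-labelled against wild type, and 8 rose and 1 fell with the antibody (8 and 3 with upper-quartile scaling). Pgk1 and Ldha, enzymes of glycolysis, fell by 2.02 and 1.57 against chow and rose by 0.78 and 0.57 in the knockout-labelled kidneys. Vegfa, the vessel growth factor, rose from 183 to 289 CPM against chow (0.66, adjusted p = 1.95e-05) and further to 358 in the knockout-labelled kidneys. Angptl4 fell in both comparisons, by 0.58 and 0.83.

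Among genes of signalling below the Epo receptor, 10 of 16 rose and 5 fell in wild type against chow, and 1 rose and 7 fell in knockout-labelled against wild type. With upper-quartile scaling these counts were 12 and 1, and 0 and 9. Socs3, a feedback inhibitor that many cytokines induce, rose from 2.46 to 69.5 CPM (4.81 ± 0.15, adjusted p = 1.5e-15) and fell to 54.8 CPM in the knockout-labelled kidneys (adjusted p = 0.00378). Csf2rb, the common beta chain of several cytokine receptors, rose by 2.41, and Bcl2l1, a survival gene of erythroid precursors, fell by 0.54. Of 6 genes of iron supply, 4 fell against chow and 4 rose in the knockout-labelled kidneys; with upper-quartile scaling 3 fell and 2 rose against chow. Tfrc, the transferrin receptor, went from 39.4 to 33.0 and 43.2 CPM over the 3 groups, where the first step loses its call with that scaling (adjusted p = 0.662) and with the length offset (adjusted p = 0.244), and rose from 54.4 to 115 CPM with the antibody (1.08, adjusted p = 6.68e-05).

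Cell types that share the kidney with blood moved in these comparisons too. All 12 proximal tubule genes fell in wild type against chow and rose in the knockout-labelled kidneys, with a summed level of 16902 to 17323 CPM in chow, 2440 to 4378 in wild type and 5539 to 11811 in the knockout-labelled kidneys. They were also higher with the antibody, at 8162 to 11064 CPM against 2572 to 3828 with IgG, where pooled globin overlapped between the groups. All 12 endothelial genes fell against chow, and 10 rose in the knockout-labelled kidneys; their sum went from 742 to 819 CPM in chow to 246 to 346 and 353 to 520. Kdr, the VEGF receptor of endothelium, fell by 2.51 and rose by 1.10. The interstitial fibroblast and pericyte list, whose cells include those that make Epo, rose in 5 and fell in 3 of 10 genes against chow, and 4 rose and 2 fell between the adenine groups. With the antibody 0 rose in either list, and 3 of 12 endothelial and 5 of 9 interstitial genes fell. The endothelial sum was 144 to 177 CPM with IgG and 118 to 134 with the antibody. The interstitial sum was 362 to 486 and 218 to 297 CPM in these groups.

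Markers of other blood cells were counted too. The summed platelet list was 12.6 to 14.7 CPM in chow, 12.6 to 16.5 in wild type and 14.1 to 17.6 in the knockout-labelled kidneys, ranges that overlap, and of 6 genes tested 2 rose and 1 fell against chow and 1 rose between the adenine groups. The fall and the last rise, both Itga2b, lose their calls with upper-quartile scaling (adjusted p = 0.707 and 0.155), and the rise also without any of several single libraries. All 7 tested neutrophil genes rose in wild type against chow, from a sum of 8.59 to 12.9 CPM to 44.2 to 65.2, and the knockout-labelled kidneys held 31.6 to 58.9. S100a8 rose by 5.13 against chow, or by 6.75 without chow replicate 3, and gave -0.21 between the adenine groups, which did not pass. Of 8 lymphocyte genes 6 rose against chow and none passed in either direction between the adenine groups. In the second experiment these sums were lower with the antibody, without overlap. The platelet list held 5.48 to 7.11 CPM with IgG and 4.08 to 4.45 with the antibody. The neutrophil list held 16.1 to 23.8 and 8.44 to 11.7 CPM, and the lymphocyte list 7.98 to 9.88 and 5.66 to 6.59. No tested gene rose, and 2 of 5, 4 of 5 and 1 of 6 fell in that order. The lymphocyte fall, Cd3d, lost its call in several alternatives. Pooled globin overlapped between those groups. The part of any of these cell types in the globin levels was not tested.

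**Figure D5:**
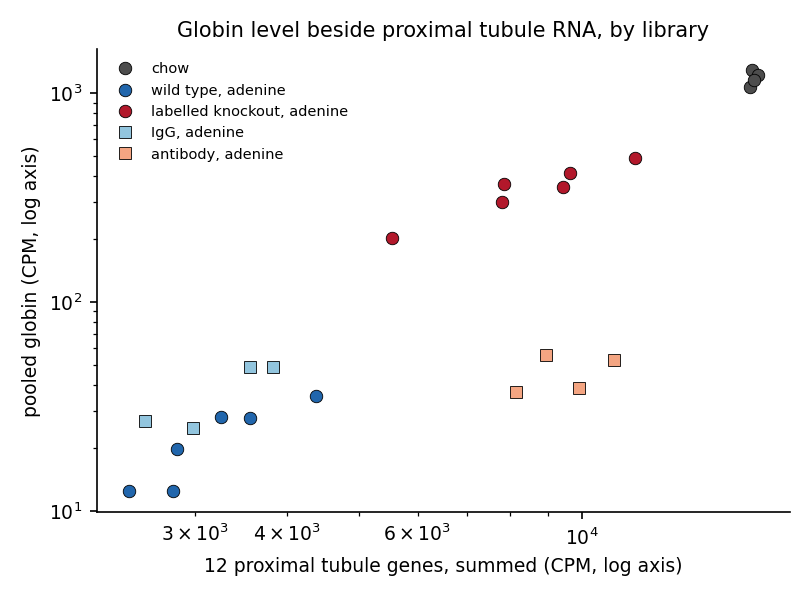
Pooled globin against the summed proximal tubule list in each kidney, both in CPM on log axes, with 1 point a kidney, circles for the first experiment and squares for the second, which was scaled separately. In the first experiment the 3 groups separate on both axes, and in the second the IgG and antibody groups separate on the tubule axis and overlap on the globin axis.

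Within groups, the globins varied together from kidney to kidney. On log2 CPM deviations from the group mean, pooled alpha and pooled beta gave Pearson's r of 0.963 over the 16 libraries of the first experiment and 0.973 over the 8 of the second, as a description without a test. Alas2 gave 0.44 and 0.70 with pooled globin, and Epor 0.05 and -0.63, on few reads. The 10 protein-coding genes most like pooled globin, ranked by the lower of the 2 values of r among 13395 genes whose mean reached 1 CPM in each experiment, were Nr1h3, Sbds, Alb, Tmem106a, Slc22a2, Adtrp, Ugt3a1, Acot4, Sod1 and Rdh16f2, from 0.915 for Nr1h3 to 0.850 for Rdh16f2. None of them is in the red cell, erythroid factor or haem lists used here, and the ranking is loose: leaving out 1 library kept between 4 and 10 of the 10. The proximal tubule sum gave 0.885 and 0.748 with pooled globin on the same measure, the red cell list 0.872 and -0.082, and the mitochondrial share of reads 0.581 and 0.393. All these values share the libraries' scaling and depth.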

How the data were processed

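Whole-kidney RNA of 24 mouse libraries (strand-specific, per the labels' protocols) was sequenced; the submitters' processing notes list Salmon, FastQC, DESeq2, DESeq and the build GRCm39, without versions, and the files hold Salmon's columns. Per the file headers, the deposited values are estimated counts per transcript and TPM, the latter per length by the authors. Transcripts were joined to GENCODE M21, where 115636 of 116755 matched (99.0%); the rest held 0.45% to 0.570% of reads. Estimated counts were summed per gene, rounded and tested with edgeR 4.0.16 (R 4.3.3, limma 3.58.1): filterByExpr, TMM, quasi-likelihood F test, Benjamini-Hochberg adjustment over all genes tested, two-sided, threshold 0.05. The 16 libraries of the knockout experiment shared 1 fit and the 8 antibody libraries another. Precision follows depth, from 21049722 gene reads in the shallowest library; read floors of 3 cover counting error only.

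Members and lists were chosen with earlier results of these data known. All members are named, and of each of 15 lists (185 genes), per comparison, up to 4 called genes per direction with the smallest adjusted p, genes moving against most of their list, the core haem enzymes, and the HIF and prolyl hydroxylase genes could be named; each list's counts are printed once, and some genes that this rule names are not reported here. The 10 genes most like the globins were ranked by correlation. Alternatives were other scalings (RLE, upper quartile), no filter, a transcript-length offset, DESeq2 1.42.0, a replicate block, only the groups compared, and each library left out. Share of reads and TPM were added after seeing the data. The fits were also run on simulated counts in which few genes changed. That run does not bear on the choice of scaling, and its outcome is not reported here. No replicate pair looked like 1 library deposited under separate names: chi-square per degree of freedom was 4.95 or more.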

Additional observations from a re-analysis of the deposited data

Results flagged for a closer look

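Within-group outliers were looked for among 65 sets of a member's or ratio's values in 1 group, of which chance alone picks about 1 in 20, and 2 were found, both with Alas2 in the antibody group. Alas2 in antibody replicate 2 stood at 0.510 CPM, below the other 3 antibody kidneys, which held 0.680 to 0.697 CPM. Alas2 per 1000 globin reads in antibody replicate 1 stood at 18.7, above the other 3, which held 12.2 to 13.3. The first gap is narrow beside the IgG group, which spread from 0.175 to 0.963 CPM.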

How the results depend on the processing

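Pooled globin kept its direction under every alternative run in the 4 comparisons. Leaving out each library in turn gave log2 changes from -5.87 to -5.57 in wild type against chow, from 3.84 to 4.14 in knockout-labelled against wild type, from -1.85 to -1.62 in knockout-labelled against chow and from 0.15 to 0.46 with the antibody. As a share of reads and in TPM, chosen after seeing the data, pooled globin moved to -5.08 and -4.85 in wild type against chow. On those scales it moved to -1.18 and -0.92 in knockout-labelled against chow, and to 0.07 and 0.15 with the antibody. Same-numbered samples did not deviate together (r from -0.130 to 0.0543), so the numbers were not taken as pairs; a fit with the replicate block gave -5.81, 3.99, -1.82 and 0.35. Upper-quartile scaling raised the number of listed genes that fell with the antibody from 36 to 57, and shifted the median gene by 0.23, -0.06, 0.16 and -0.16 in the 4 comparisons. Values that had passed the test or exceeded their spread and reversed were Ank1 in wild type against chow, -0.40 with the transcript-length offset; Jak2 0.0272, Ptpn6 0.0352, Stat5b 0.12 and Pdgfrb 0.00952 with upper-quartile scaling; Ppox 0.16 and Abcb6 -0.0474 with the length offset in the antibody experiment; and Epor in knockout-labelled against chow, 0.00671 as a share of reads and 0.46 in TPM. Values within their spread or not called also turned sign: with the antibody Hbb-bs (-0.00860 as a share of reads) and Alas2 (-0.11 in TPM and -0.08 without IgG replicate 2), in knockout-labelled against chow Alas1 (0.22) and Hif3a (0.10) with the length offset, and Egln3 between the adenine groups (-0.06 with upper-quartile scaling). The cause was not tested. Counted as pairs of a single-gene value and an alternative, 149 lost their call, from 41 values, 15 gained one, from 6 values, and 7100 stayed. Depth limits Epo everywhere and Alas2 in wild type.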
